A study of Mus musculus with 6 samples.

Results

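Runs of closely spaced open chromatin sites away from gene ends were followed in B-cells sorted from the bone marrow of PEtg mice (the labels do not expand the strain name). From the authors' list of 97124 ATAC-seq peaks, 24056 peaks within 2.5 kb of either end of a protein-coding RefSeq gene and a further 519 peaks of 3000 bp or wider were dropped. The 72549 peaks left were joined along each chromosome wherever the gap was at most 5 kb, and runs of 8 or more peaks were kept. This gave 545 runs holding 5660 peaks, 5.83% of the list. Positions and not measured values chose the members. ATAC-seq maps accessible DNA with a transposase that inserts sequencing adapters where chromatin is open. H2B-GFP is a histone fused to green fluorescent protein, diluted at each division, and cells that kept it (H2B-GFP high, labelled quiescent, n = 3 samples) were compared with cells that lost it (H2B-GFP low, labelled proliferating, n = 3 samples). All 6 samples carry the PEtg background, so none comes from mice without it. The sources used here do not give age, sex, the constructs behind the names PEtg and H2B-GFP or the number of mice per sample. The p-values therefore measure only how far these samples spread, and that spread may be technical.

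Regulatory sites outside promoters, the enhancers, bind transcription factors and act on genes that can lie far away. Groups of neighbouring enhancers in open chromatin are a known feature of genes that set cell identity, and in the B lineage such groups are known around factors such as Ebf1, Pax5 and Foxo1. The accessibility of a region says that factors can reach the DNA, and not which gene it serves. Each run below carries the name of the protein-coding gene it lies in, or else of the nearest such gene, which gives its position only, since targets were not measured.

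The rule kept peaks away from the outer ends of protein-coding genes, yet 138 of the 5660 member peaks (2.44%) overlapped an annotated start window, from 250 bases before to 50 after a start in RefSeq (GRCm38.p6, the assembly behind mm10). For 56 of them the start was that of a protein-coding gene, over 2.5 kb inside its ends, and the others belonged to non-coding genes. The share was 2.78% among peaks in runs of 2 to 7 and 1.91% among peaks joined to no other. Of the 135 such member peaks tested, 2 were higher and 4 were lower in quiescent cells (4.44%, against 6.72% of all single peaks tested). The start windows overlapping these 6 peaks, in whole or in part, are printed here, chosen after their values were seen and each read on the strand of its gene, as they are the stretches of the runs whose sequence was at hand. Capitals mark a match, on either strand, to any of 7 short motifs searched (TGACTCA of AP-1, GAGGAAGT of PU.1, CAGCTG and CAGGTG of E proteins, CCCNNGGG of EBF, AGATAAG of GATA factors and TGTTTAC of FOXO factors).

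Spns2, chr11:72474978-72475277, minus strand: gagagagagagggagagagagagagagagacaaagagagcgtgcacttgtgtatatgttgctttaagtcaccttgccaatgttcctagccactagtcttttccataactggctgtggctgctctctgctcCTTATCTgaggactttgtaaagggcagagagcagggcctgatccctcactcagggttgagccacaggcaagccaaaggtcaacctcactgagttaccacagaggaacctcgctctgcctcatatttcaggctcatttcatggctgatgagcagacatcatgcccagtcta
Gm35202, chr2:35503274-35503573, plus strand: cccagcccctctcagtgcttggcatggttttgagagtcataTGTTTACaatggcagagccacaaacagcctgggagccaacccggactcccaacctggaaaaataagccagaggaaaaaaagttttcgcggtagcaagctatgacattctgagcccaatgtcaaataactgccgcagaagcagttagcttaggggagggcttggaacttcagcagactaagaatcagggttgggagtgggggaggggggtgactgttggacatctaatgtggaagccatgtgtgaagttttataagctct
Gm35260, chr2:35504787-35505086, minus strand: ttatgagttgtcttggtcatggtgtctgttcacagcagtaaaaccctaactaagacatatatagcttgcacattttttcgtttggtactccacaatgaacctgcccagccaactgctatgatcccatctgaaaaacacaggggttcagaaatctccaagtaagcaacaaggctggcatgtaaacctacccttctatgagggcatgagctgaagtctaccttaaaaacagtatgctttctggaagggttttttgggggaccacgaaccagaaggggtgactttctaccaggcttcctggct
St6gal1, chr16:23290220-23290519, plus strand: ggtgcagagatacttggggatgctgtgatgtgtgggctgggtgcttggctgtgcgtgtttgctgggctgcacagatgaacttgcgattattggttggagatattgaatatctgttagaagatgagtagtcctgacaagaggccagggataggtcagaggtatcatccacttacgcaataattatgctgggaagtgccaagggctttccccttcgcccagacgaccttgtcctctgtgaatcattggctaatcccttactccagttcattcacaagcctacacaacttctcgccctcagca
Gm34657, chr2:75768581-75768880, plus strand: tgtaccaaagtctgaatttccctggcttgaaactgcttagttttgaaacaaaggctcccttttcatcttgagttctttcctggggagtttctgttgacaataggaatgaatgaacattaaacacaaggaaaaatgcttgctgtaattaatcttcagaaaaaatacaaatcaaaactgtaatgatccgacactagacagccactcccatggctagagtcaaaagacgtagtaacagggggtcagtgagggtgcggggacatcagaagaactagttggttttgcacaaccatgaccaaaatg
Gm32633, chr7:63986585-63986884, plus strand: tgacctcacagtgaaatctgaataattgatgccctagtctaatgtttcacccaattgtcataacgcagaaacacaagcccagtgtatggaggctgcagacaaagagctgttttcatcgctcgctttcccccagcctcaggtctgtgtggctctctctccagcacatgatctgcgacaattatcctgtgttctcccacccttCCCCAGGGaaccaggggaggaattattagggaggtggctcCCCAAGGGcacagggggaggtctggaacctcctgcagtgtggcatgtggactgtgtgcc
Gm39272, chr8:122933546-122933845, plus strand: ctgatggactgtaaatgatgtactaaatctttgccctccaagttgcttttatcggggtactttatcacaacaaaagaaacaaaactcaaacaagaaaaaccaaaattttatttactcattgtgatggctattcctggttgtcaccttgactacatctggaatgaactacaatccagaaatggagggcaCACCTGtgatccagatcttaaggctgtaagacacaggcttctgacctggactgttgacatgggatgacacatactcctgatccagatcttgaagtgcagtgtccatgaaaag

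The Spns2 window holds AGATAAG on the opposite strand at positions 131 to 137, counted from 1 at its 5′ end, a motif found in 3.02% of 32544 start windows of 300 bases. The changed peak covers 118 bases of this window and does not reach the motif. Spns2 encodes a transporter that releases sphingosine 1-phosphate, the lipid that guides lymphocytes out of tissues. The peak overlapping this window held a deposited signal of 171.5, 150.7 and 193.0 in quiescent samples 1 to 3 and of 53.5, 66.0 and 88.8 in proliferating samples 1 to 3. All 3 quiescent values lay above all 3 proliferating ones, and the peak rose by 1.32 ± 0.24 (SE) on the log2 scale (limma adjusted p = 0.0194). The Gm35202 window holds TGTTTAC at positions 42 to 48 (in 3.66% of windows), and the Gm35260 window held none of the 7 motifs. These non-coding genes lie on opposite strands with their starts under the same peak, in the run nearest to Ggta1, which encodes a galactosyltransferase. That peak held 1223.8, 1215.7 and 1205.8 in the quiescent samples and 1817.4, 1936.1 and 1984.2 in the proliferating samples. The groups did not overlap, and it fell by 0.65 ± 0.10 (limma adjusted p = 0.0121). The changed peak at Gm39272 covers only 34 bases of the window, and the CAGGTG on the opposite strand at positions 189 to 194 (in 20.3% of windows) lies outside it. The other 3 lower peaks overlap the start windows of St6gal1, the sialyltransferase that makes alpha-2,6-linked sialic acid on B-cells (138.0 ± 31.8 in quiescent against 260.7 ± 26.7 in proliferating cells, SD, n = 3 each), of Gm34657 (177.9 ± 63.4 against 358.0 ± 74.6) and of Gm32633 (131.6 ± 13.3 against 227.4 ± 2.3). The windows of St6gal1 and Gm34657 held none of the 7 motifs, and that of Gm32633, which lies wholly under its peak, holds CCCNNGGG at positions 202 to 209 and 242 to 249 (in 13.7% of windows). A motif match is a description of these letters and not a bound site.

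MicroRNAs are small RNAs that pair with messenger RNAs through a seed at their 5′ end, and 4 of the 545 runs held a microRNA gene. The mature sequences from RefSeq (GRCm38.p6) are shown for the pair cut from Mir139, which lies under a member peak, and for miR-12204-5p, the only one whose nearest member peak passed, with the seed (bases 2 to 8) in capitals. They were chosen after their values were seen.

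mmu-miR-139-5p: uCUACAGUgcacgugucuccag
mmu-miR-139-3p: uGGAGACGcggcccuguuggag
mmu-miR-12204-5p: uUGAGUCUuagaugagug

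The peak over Mir139, inside Pde2a, averaged 599.1 ± 158 (SD, n = 3) in quiescent and 576.2 ± 125 (n = 3) in proliferating cells, a log2 difference of 0.04 ± 0.23 (SE) that did not pass (limma adjusted p = 0.935). The peak nearest to the miR-12204 gene (chr9:14180055-14180072) lay 975 bp away in the run nearest to Sesn3, a stress-induced gene that restrains growth signalling. It fell to 24.3 ± 5.01 in quiescent from 70.9 ± 18.6 in proliferating cells (-1.49 ± 0.32, limma adjusted p = 0.0298). No seed was shared among these 3 microRNAs.

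The runs spanned 8631 to 77680 bp (median 20995 bp), 12.25 Mb in all, of which the median run had 39.8% under peaks. Most were short in peak number, with a median of 9 peaks, and 170 had exactly 8, just inside the rule, while 281 runs of 7 lay just outside it. Only 44 runs had 15 or more peaks and 16 had 20 or more. Signal was uneven within them, as the strongest peak held a median of 40.5% of the run's summed signal (14.7% to 90.3%). Member peaks were wider than others, with a median of 659.5 bp against 535.0 bp in runs of 2 to 7 and 433.0 bp for peaks joined to no other. Their median signal was 83.6 against 68.5 and 50.9. A wide peak shortens the gap to the next, so width is not independent of the rule, and these medians are given without a test.

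Of the 545 runs, 355 (65.1%) lay in the body of 311 protein-coding genes and 190 lay between genes, at a median of 20515 bp from the nearest one. The gene holding or nearest to a run had a median length of 90993 bp against 17146 bp over all protein-coding genes of the table. The rule keeps only peaks away from gene ends. A run in a gene body must therefore fit inside that gene with over 2.5 kb to spare at each end, so short genes cannot hold one. The comparison thus favours long genes by construction, and the size of this part was not tested. Ebf1, the factor that commits progenitors to the B lineage, held the most runs, with 5 runs and 68 peaks in its 389997 bp. Rgl1, a regulator of Ral signalling, Arhgef3, a nucleotide exchange factor of small GTPases, and Foxp1, a forkhead factor of B-cell development, held 3 runs each. Another 34 genes held 2 runs, among them Runx1 and Lef1 of lymphoid development, Stat5b of IL-7 signalling, Vav2 and Tec of antigen receptor signalling and Nr3c1, the glucocorticoid receptor. Of the 38 genes with several runs, the runs of 26 had fold changes of the same sign, and no gene had several runs past the threshold. Antigen receptor loci held 4 runs, 3 in Igh (heavy chain) and 1 in Igk (kappa light chain), none of which passed (1 had an unadjusted p under 0.05).

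The share of the open chromatin signal in the dense runs did not differ beyond its spread on the deposited scale. They held 8.145%, 7.813% and 8.013% of all peak signal in quiescent samples 1 to 3 and 7.847%, 7.93% and 7.878% in proliferating samples 1 to 3. The groups overlapped, with means of 7.99% ± 0.167 and 7.885% ± 0.042 (SD, n = 3 each) and a difference of 0.105 percentage points (exact permutation test over samples, two-sided, p = 0.4, where 0.1 is the smallest this design allows). As a share of recovered reads they held 8.276%, 7.867% and 8.087% in the quiescent and 7.77%, 7.829% and 7.746% in the proliferating samples. On that scale all 3 quiescent samples lay above all 3 proliferating ones, by 0.295 percentage points (exact permutation test, two-sided, p = 0.1), so whether the groups overlap depends on the scale. The median log2 fold change of the 545 run sums was 0.052, against -0.033 over all 58711 units tested. The reads behind the signal, recovered from the values, came to between 8053648 in proliferating sample 1 and 49394106 in proliferating sample 3, and the median run held 922 reads in the former and 5525 in the latter. A unit here is a joined run of any size or a single dropped peak, so that each peak of the list belongs to 1 unit.

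By their summed signal, 64 of the 545 runs (11.7%) changed, 36 of them higher (6.61%) and 28 lower (5.14%) in quiescent cells (limma with an intensity trend on log2(summed signal + 1), Benjamini-Hochberg over all units, threshold 0.05). The background over all units was 6.99% called, 4.15% higher and 2.84% lower. Among runs of 2 to 7 peaks 11.1% were called and among peaks joined to no other 7.41%. The median standard error fell in the same order, from 0.317 for those single peaks through 0.204 to 0.12 for the dense runs, and its part in these shares was not tested. The shares were 10.7% for runs of exactly 7 peaks and 10.6% for runs of exactly 8. The groups did not overlap in 211 of the 545 runs (38.7%, against 30% of all units), with all 64 called runs among them. Of the called runs, 44 of 64 (68.8%) lay in gene bodies. In bulk samples, more cells of a type and more open chromatin per cell cannot be told apart.

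**Figure D1:**
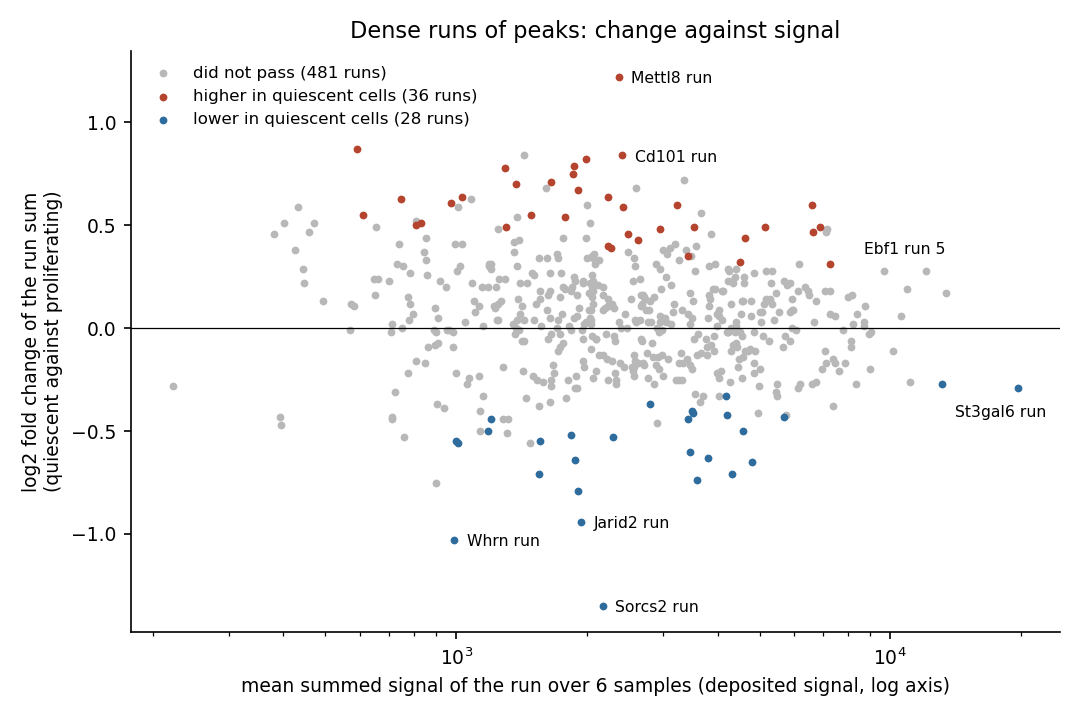
Log2 fold change of the summed signal (quiescent against proliferating, vertical axis) against mean summed signal over the 6 samples (horizontal log axis) for the 545 dense runs, 1 point a run. Red points are the 36 runs higher and blue points the 28 runs lower in quiescent cells by limma. Only the runs in Mettl8, Whrn and Sorcs2 lie at 1 or beyond on the log2 scale.

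Changes of run sums were moderate, from -1.35 to 1.22 on the log2 scale, and the median size among the called runs was 0.55. Only 3 runs changed by 1 or more. With the replicate number as a block, 94 runs were higher and 69 lower (29.9%, against a background of 18.8%, with 10.1% higher and 8.7% lower), and all 64 runs were among these 163. The count moved when a single sample was left out, as did that over all 58711 units, where the full fit called 2436 higher and 1668 lower. Without quiescent sample 3 limma called 0 runs and 0 of all units (142 runs, or 26.1%, had an unadjusted p under 0.05, against 18.6% of all units). Without quiescent sample 2 it called 2 runs (0.367%), against 170 units higher and 141 lower. Without proliferating sample 2 or 3 it called 5 (0.917%) and 7 (1.28%), against 403 units higher and 162 lower, and 522 and 288. Without quiescent sample 1 or proliferating sample 1, the latter the shallowest library, it called 72 (13.2%) and 83 (15.2%), against 2407 and 2009, and 4052 and 2022. All 64 runs kept their direction in each of these 6 fits. As their groups did not overlap, leaving out a sample could not change the sign, so this is no sign of stability. The balance of directions moved with the scaling. With recovered reads scaled to their totals 58 runs were higher and 45 lower (56.3% of the called runs higher, against 33.6% of all called units), the median of all units then being -0.249 and that of the dense runs 0.04. With median-of-ratios scaling 156 were higher and 8 lower, so that 95.1% of called runs were higher, against 72.3% of all called units. With the deposited scaling these shares were 56.2% and 59.4%. Their backgrounds were 16% and 14.7% called. With the mean of log2 values in place of the sum, which gives weak peaks equal weight, only 8 runs passed (7 higher and 1 lower, background 5.41%). Without the strongest peak of each run 53 passed (36 higher and 17 lower, background 5.42%), 34 of the 64 among them.

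**Figure D2:**
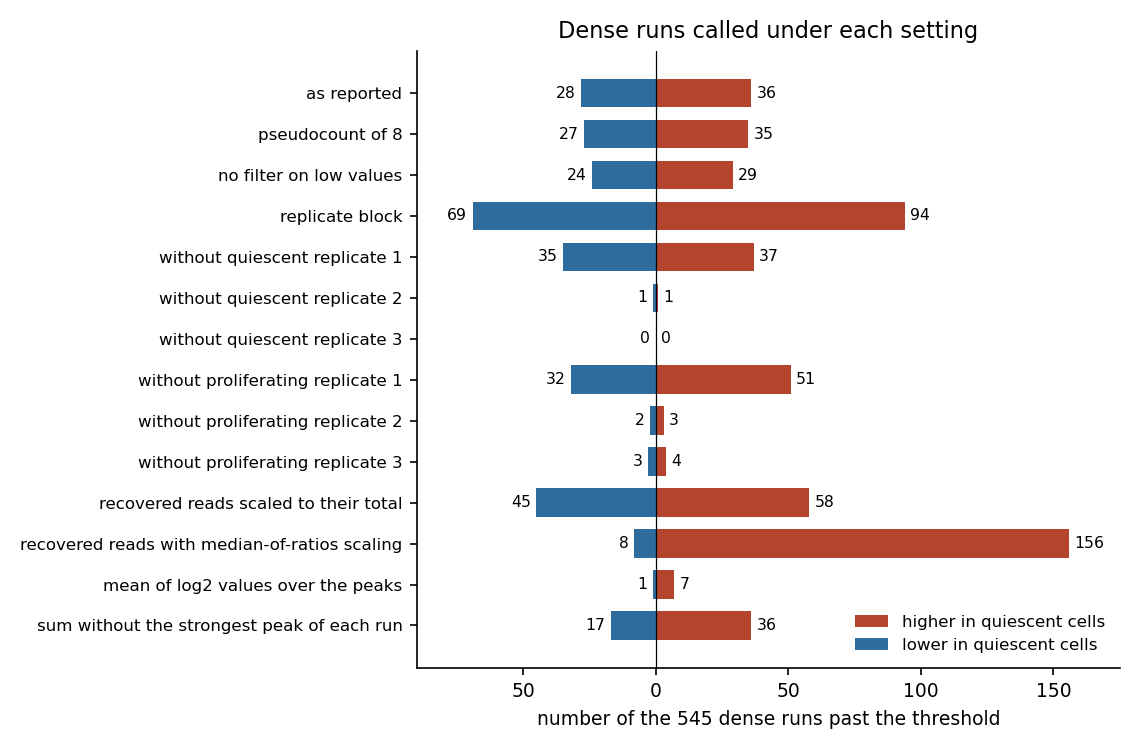
Number of the 545 dense runs called higher (red, right) or lower (blue, left) in quiescent cells under each setting, 1 bar pair a setting. The counts fall to 0 without quiescent replicate 3, as do those over all units, and median-of-ratios scaling gives 156 higher and 8 lower.

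The largest fall in quiescent cells was the run inside Sorcs2, a sorting receptor of the sortilin family (chr5:36083735-36100501, 8 peaks). Its summed signal was 1312.5, 1101.6 and 1257.7 in quiescent samples 1 to 3 and 3197.1, 3021.3 and 3154.5 in proliferating samples 1 to 3. Every quiescent value lay below every proliferating one, and the sum was 2.55-fold higher in proliferating cells (log2 fold change -1.35 ± 0.11 SE, limma adjusted p = 0.00446). All 7 of its tested peaks had a fold change below 0 and 6 passed. The strongest peak fell from 2364.3 ± 100 to 1024.4 ± 84.5 (SD, n = 3), and the next in rank fell from 325.3 ± 39.0 to 66.8 ± 28.3. Without its strongest peak the run fell by 1.98. The run passed in 5 of the 6 fits that leave out a sample, failing without quiescent sample 3.

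The largest rise was the run inside Mettl8, an RNA methyltransferase gene (chr2:71025539-71047932, 8 peaks). It held 3319.7, 3270.7 and 3359.2 in the quiescent samples and 1434.9, 1374.8 and 1447.5 in the proliferating samples. The groups lay far apart relative to their spread, with a 2.34-fold higher sum in quiescent cells (1.22 ± 0.09, limma adjusted p = 0.00446). All 8 peaks had a fold change above 0 and 2 passed, the strongest at 1594.0 ± 31.3 against 630.7 ± 62.4 and the next at 1224.8 ± 29.9 against 475.9 ± 31.2. It also failed only without quiescent sample 3. The runs in Sorcs2 and Mettl8 were the only 2 called without quiescent sample 2.

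Among the 10 largest falls, the run in Jarid2, an accessory protein of Polycomb repressive complex 2, held 1120.1, 1518.9 and 1323.9 in quiescent and 1872.8, 3119.4 and 2701.3 in proliferating samples (-0.94 ± 0.19, limma adjusted p = 0.0272). The groups did not overlap, with proliferating sample 1 nearest to the quiescent ones. Its strongest peak carried 51.6% of the signal, and without that peak the run no longer passed (-0.46, limma adjusted p = 0.268). The run nearest to Klf4, a Krüppel-like factor that restrains division in B-cells and lies 46979 bp away, held 1474.7, 1477.9 and 1443.0 in quiescent and 2180.0, 2408.4 and 2262.5 in proliferating samples (-0.64 ± 0.10, limma adjusted p = 0.0112). The quiescent samples lay close together and all below the proliferating ones, and 1 of its 8 tested peaks passed.

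Others in this direction were the run in Whrn, a scaffold protein of sensory cells (-1.03 ± 0.17), the run nearest to Fchsd2, an endocytic membrane-shaping protein (-0.71 ± 0.10), and the run nearest to Bcar3, an adaptor of adhesion signalling (-0.65 ± 0.16). Runs in Mroh2a (-0.79 ± 0.20) and Tmem108 (-0.74 ± 0.11) and nearest to Gm9733 (-0.63 ± 0.11) also fell. In Whrn a single peak of 9 passed, from 559.1 ± 133 to 167.4 ± 28.2, and all 9 had a fold change below 0. In Mroh2a the strongest peak held 78.8% of the signal, and without it the run did not pass (-0.21, limma adjusted p = 0.689). In Mroh2a and Bcar3 proliferating sample 1 stood above the other 2 of its group, at 3237.9 against 1853.3 and 2201.3, and at 7355.0 against 5148.0 and 5142.1. With median-of-ratios scaling the runs of Mroh2a (-0.44), Bcar3 (-0.26) and Gm9733 (-0.31) did not pass. Without their strongest peak those of Whrn (-0.67), Fchsd2 (-0.42) and Gm9733 (-0.36) did not. Leaving out each sample in turn, these runs passed in 1 (Bcar3) to 4 (Fchsd2) of 6 fits.

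Among the 10 largest rises, the run in Etv6, an ETS-family repressor of blood cell development, held 2162.8, 1869.8 and 2135.4 in quiescent and 1442.0, 1145.8 and 1183.9 in proliferating samples. All quiescent values were above all proliferating ones (0.71 ± 0.13, limma adjusted p = 0.0169). Of its 8 peaks 7 had a fold change above 0 and 4 passed, all higher. The strongest peak of this run rose from 613.7 ± 99.7 to 940.0 ± 84.0. The run nearest to Jun, the AP-1 subunit of immediate-early responses, lay 99816 bp from it and held 2034.5, 2355.6 and 2638.7 against 1279.6, 1476.1 and 1651.1 (0.67 ± 0.14, limma adjusted p = 0.0263). Its strongest peak rose from 574.7 ± 143 to 1161.4 ± 196, while the next in rank, at 377.8 ± 68.2 against 368.0 ± 50.9, differed by less than its spread.

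The run in Fut8, the core fucosyltransferase of N-glycans, held 2566.4, 2348.3 and 2146.6 in quiescent and 1095.0, 1668.4 and 1366.6 in proliferating samples (0.79 ± 0.16, limma adjusted p = 0.025). All 11 of its peaks had a fold change above 0, though only 1 passed. The run in Cd101, a surface protein of the immunoglobulin superfamily, rose by 0.84 ± 0.13, from 1726.0 ± 54.5 to 3105.2 ± 497 (limma adjusted p = 0.011). The others were runs in Stau1, which binds double-stranded RNA (0.82 ± 0.15), Sdccag8, a centrosomal protein (0.78 ± 0.13), Dtx4, a Deltex-family ubiquitin ligase (0.75 ± 0.13), and Pstpip1, an adaptor of the actin cytoskeleton (0.70 ± 0.11), and the run nearest to Gm9949 (0.87 ± 0.15). These 10 runs, Mettl8 apart, passed in 2 or 3 of the 6 fits that leave out a sample. With the mean of log2 values only Sorcs2, Mettl8 and Dtx4 of the runs named for their change passed, and without its strongest peak the run near Jun did not (0.40, limma adjusted p = 0.11). The remaining 26 runs higher and 18 lower had changes no larger than these.

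**Figure D3:**
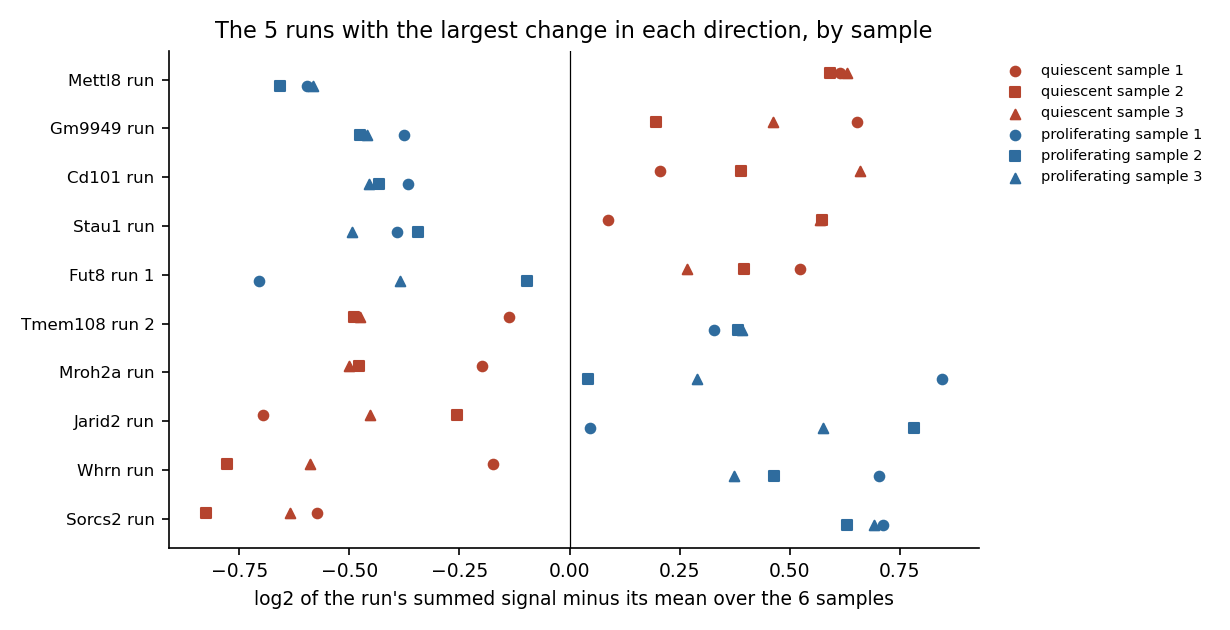
Log2 of the summed signal of a run minus its mean over the 6 samples (horizontal axis) for the 5 runs with the largest rise and the 5 with the largest fall in quiescent cells, 1 row a run. Symbols give the sample number and colours the group. Within each row the 3 red points lie on 1 side of 0 and the 3 blue points on the other, with the widest gaps in Sorcs2 and Mettl8.

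Of the 5 runs with the most peaks, 1 passed, and their sums differed by 0.07 to 0.44 on the log2 scale, against a median size of change of 0.193 over the dense runs. The run of 40 peaks in Ankrd11, a chromatin regulator, held 7706.5, 6918.1 and 7719.8 in quiescent and 7527.2, 6727.8 and 6955.6 in proliferating samples, and the groups overlapped (0.07 ± 0.08, limma adjusted p = 0.645). Its peaks did not move alike, since 6 of the 39 tested were higher and 2 lower. The strongest, with 40.4% of the signal, fell from 3474.4 ± 218 to 2392.8 ± 230 (-0.54 ± 0.11), and a weaker peak to its left on the chromosome rose from 145.0 ± 37.0 to 385.8 ± 90.9 (1.41 ± 0.26). Without the strongest peak the run rose (0.49, limma adjusted p = 0.0223). A risen peak overlaps the start window of Gm39272 printed with the sequences, at 152.3 ± 28.0 against 71.9 ± 20.1 (1.09 ± 0.27, limma adjusted p = 0.0436). The other run of Ankrd11, with 14 peaks, all with a fold change above 0, passed as a whole (0.64 ± 0.14, limma adjusted p = 0.0302).

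Of the next longest runs, that of 28 peaks in Dgkd, a diacylglycerol kinase, passed, with 5682.1, 4747.7 and 5542.6 in quiescent and 4222.7, 3832.1 and 3693.7 in proliferating samples (0.44 ± 0.10, limma adjusted p = 0.038). Its fold changes were above 0 in 23 of 25 tested peaks. The run of 35 peaks in Foxo1, a forkhead factor held in check by PI3K signalling, had 29 of 34 peaks above 0, but quiescent sample 1 (5263.7) stood apart from samples 2 and 3 (3841.2 and 4033.5) and the sum did not pass (0.31 ± 0.13, limma adjusted p = 0.177). It differed by 0.17 with recovered reads scaled to their totals and by 0.41 with median-of-ratios scaling (limma-voom adjusted p = 0.309 and 0.0749). The run of 27 peaks in Elf1, an ETS factor, had a difference of 0.41 ± 0.12 (limma adjusted p = 0.0809) and passed with the replicate block (limma adjusted p = 0.0063).

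The runs with the most signal per kb were in St3gal6, a sialyltransferase, near Golga5, a golgin, and in Csnk1g3, Cmah and Trio. St3gal6 held 1120.5 per kb against a median of 114.693 over the runs, with 18094.2, 17207.1 and 17732.4 in quiescent and 22639.4, 20932.7 and 21211.9 in proliferating samples. The groups did not overlap and the run fell by 0.29 ± 0.06 (limma adjusted p = 0.0337). Trio, a nucleotide exchange factor of small GTPases, fell by 0.27 ± 0.07 (limma adjusted p = 0.0498). Both turned to 0.086 and 0.072 with median-of-ratios scaling and did not pass there, and Trio passed in none of the fits that leave out a sample. Golga5 (0.19 ± 0.14), Csnk1g3 (0.03 ± 0.10) and Cmah (-0.17 ± 0.11), whose enzyme modifies sialic acid, did not pass.

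Around genes of early B-cell development, 12 of 32 listed genes had dense runs, 20 in all, of which 0 passed in limma (5 had an unadjusted p under 0.05) and 4 were higher and 0 lower with the replicate block. Over all dense runs 11.7% passed, 33.0% had an unadjusted p under 0.05 and 29.9% passed with the block, and over all units 6.99%, 24.0% and 18.8%. The fold changes were above 0 in 17 of 20 listed runs, against 58.9% of all dense runs and 46.8% of all units. Their median was 0.22, against 0.052 over all dense runs and -0.033 over all units. With recovered reads scaled to their totals it was 0.069, against 0.04 and -0.249. With median-of-ratios scaling it was 0.328, against 0.279 and 0.008. Of the 5 Ebf1 runs, the third, with 10 peaks, held 491.2, 474.8 and 449.4 in quiescent and 322.0, 353.9 and 320.5 in proliferating samples. These groups did not overlap (0.51 ± 0.14, limma adjusted p = 0.0611, and 0.0228 with the replicate block), and the fold change was above 0 in all 10 peaks. With recovered reads scaled to their totals the difference was 0.09 (limma-voom adjusted p = 0.652), and with median-of-ratios scaling 0.34 (limma-voom adjusted p = 0.107). The fifth and largest, with 27 peaks, held 11662.4, 9573.2 and 10667.8 against 8371.4, 8934.3 and 8927.4 (0.28 ± 0.09, limma adjusted p = 0.0972, and 0.0285 with the replicate block). In it 1 peak of 24 tested passed, at 352.9 ± 76.1 against 111.7 ± 9.08 (1.63 ± 0.20), and it rose against the rest of the run as well (1.39, limma adjusted p = 0.0274). The strongest peak of that run, at 2468.9 ± 446 against 1944.7 ± 380, did not pass. The other Ebf1 runs differed by 0.08, 0.38 and 0.68 without passing, and the single run of Pax5, the factor that holds B-cell identity, by 0.30 ± 0.14 (limma adjusted p = 0.217).

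**Figure D4:**
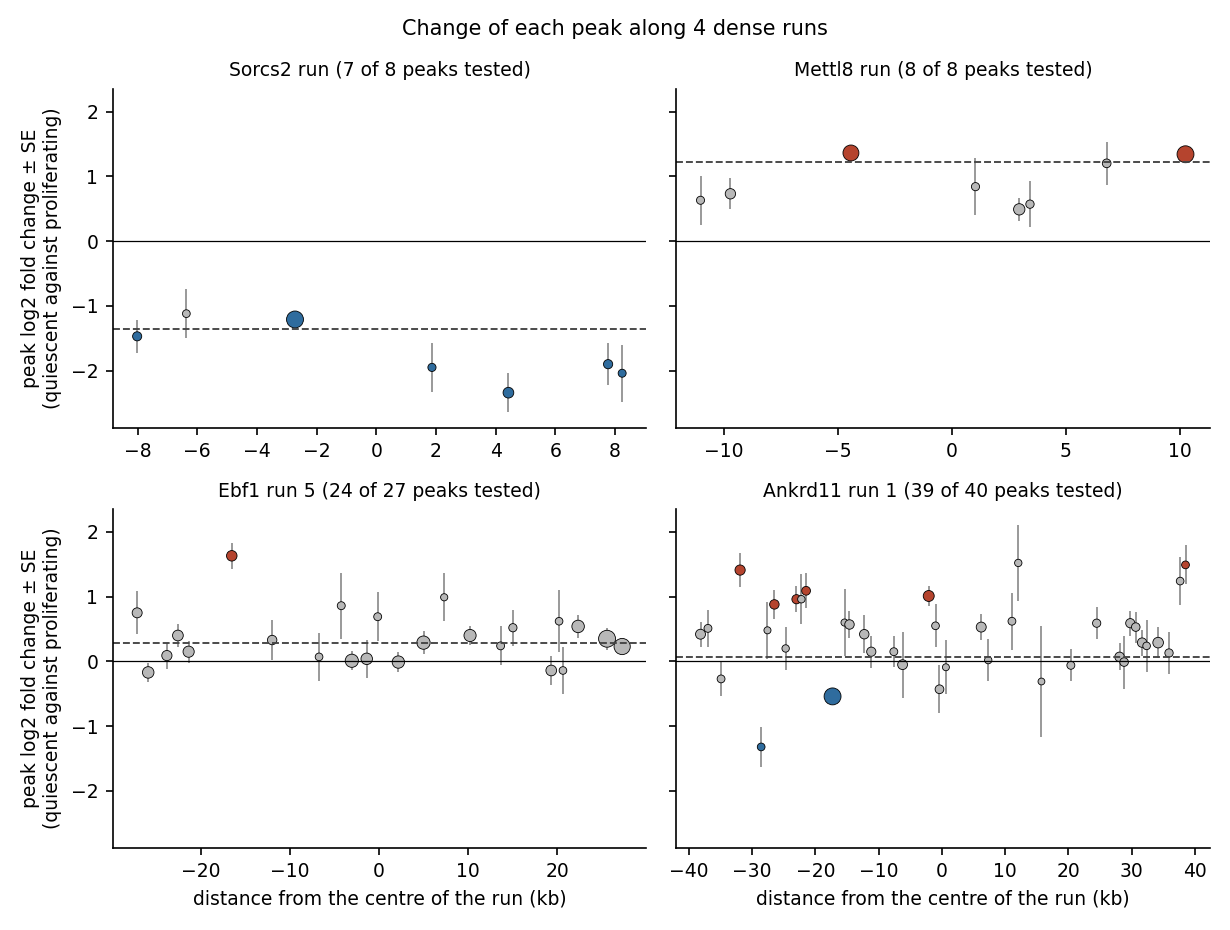
Log2 fold change ± SE of each tested peak (quiescent against proliferating, vertical axis) against its distance in kb from the centre of its run for 4 runs, with larger points for stronger peaks, red and blue for peaks that passed higher or lower, and a dashed line at the change of the run sum. Peaks in Sorcs2 all lie below 0 and those in Mettl8 above it, while in Ankrd11 run 1 6 peaks are red and 2 blue, and in Ebf1 run 5 1 peak is red.

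The other gene lists had few dense runs, and their counts stand beside the 11.7% of all dense runs and 6.99% of all units that passed. Mature and activated B-cell genes had 7 runs at 5 of 30 genes, 0 of which passed (2 with an unadjusted p under 0.05), and 1 was higher and 1 lower with the replicate block. Among them the third Foxp1 run held 911.2, 989.5 and 1036.5 in quiescent and 710.2, 714.0 and 739.2 in proliferating samples without overlap (0.44 ± 0.12, limma adjusted p = 0.0578, and 0.017 with the replicate block). With recovered reads scaled to their totals it differed by 0.19 (limma-voom adjusted p = 0.317), and with median-of-ratios scaling by 0.44 (limma-voom adjusted p = 0.0344). Cell cycle genes had 3 runs at 3 of 35 genes, at Ccnd3, Cdk6 and E2f8, and 0 passed or had an unadjusted p under 0.05, with the lowest p near E2f8, a repressor of the E2F family (-0.25 ± 0.11, limma adjusted p = 0.21). Of the 9 tested peaks of the E2f8 run 3 passed, all lower. Without its strongest peak that run passed (-0.52, limma adjusted p = 0.0479). Quiescence genes had 6 runs at 5 of 31 genes, of which that near Klf4 fell and 0 rose. IL-7 and cytokine genes had 5 runs at 4 of 25 genes, all with a fold change above 0 (0.18 to 0.39) and 0 past the threshold (2 with an unadjusted p under 0.05). The run in Bcl2l1, which encodes the survival protein BCL-XL, came nearest, at 3521.6 ± 380 against 2689.5 ± 221 (limma adjusted p = 0.074, and 0.00699 with the replicate block). Of 7 runs at AP-1 and immediate-early genes, that near Jun rose and that near Klf4 fell, and of 5 at stem and progenitor genes, that in Etv6 rose.

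Genes of other lineages had dense runs at Itgam of the myeloid list (0.03 ± 0.17), Cd247 and Tcf7 of the T and NK list, where the first Tcf7 run differed by -0.27 ± 0.14, and Prdm1 of the plasma cell list (0.14 ± 0.10). None of these 5 runs passed or had an unadjusted p under 0.05, and 0 of the 16 erythroid and megakaryocyte genes had a dense run. At the ends of marker genes, 7 of 7 B-cell markers had peaks, with summed signal of 13981.9 to 15263.6 in quiescent and 14356.0 to 17757.1 in proliferating samples. For T-cell markers 4 of 5 had peaks (956.0 to 1131.7 against 796.0 to 849.5, and Cd3e had none), mainly at Cd3d. For myeloid markers 1 of 5, Csf1r, had a peak (447.1 to 621.5 against 229.6 to 307.7), and Mpo, Elane, Cebpe and S100a8 had none. For erythroid and megakaryocyte markers 2 of 6 had peaks (936.7 to 1152.5 against 962.2 to 1210.9). The Csf1r and Cd3d peaks were higher in the quiescent samples without overlap, and their part in the changes of the runs was not tested.

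The estimated fold changes of the peaks of a run agreed only in part. Over the 5234 member peaks tested, 68.7% had the sign of their run's change, which they help to set. The SD of peak fold changes was 0.558 within runs against 0.341 between run means, an intraclass correlation of 0.2, and in 40 runs all peaks had the same sign. The error of single peak estimates enters these figures, and its part was not tested. Taken singly, 237 member peaks were higher and 162 lower in quiescent cells (399, or 7.62%, against a background of 6.72%, with 4.01% higher and 2.72% lower), and the replicate block gave 676 and 408 (20.7% against 18.3%, with 10.2% higher and 8.14% lower). Without quiescent sample 2 or 3 limma called 12 and 0 member peaks (1147 and 1136 had an unadjusted p under 0.05), and without proliferating sample 2 or 3 it called 52 and 76. Over all 87411 peaks tested, the fits without quiescent sample 2 or 3 called 65 higher and 73 lower, and 0. Those without proliferating sample 2 or 3 called 557 higher and 235 lower, and 731 and 398. The other 426 member peaks were too weak to be tested. Only 110 of the 399 lay in the 64 called runs. Called peaks were found in 256 runs, with 133 holding only higher, 93 only lower and 30 both kinds. In 31 of the 64 called runs the strongest peak itself passed, in 15 all tested peaks had the same sign, and in 4 no peak passed alone.

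To find peaks that parted from their neighbours, each peak was compared with the mean of the other peaks of its run in the same sample. By that measure 99 member peaks rose and 77 fell (176, or 3.36%, against a background of 3.71%, with 1.88% higher and 1.83% lower), in 137 runs, 25 of which had both kinds. The count was 312 with the replicate block (5.96%, against 7.32%) and 0 without quiescent sample 2 or 3 or without proliferating sample 2 or 3, where limma gave 767 to 849 peaks an unadjusted p under 0.05. Over all peaks in runs, limma called 1 higher and 0 lower without quiescent sample 2, and 0 in the other fits that gave 0 member peaks. The count of member peaks was 114 without quiescent sample 1 (2.18%), against 622 higher and 627 lower over all peaks in runs. Of the 176 peaks, 86 had a change against their neighbours of the opposite sign to that of their run's sum. Such a peak may only have changed less than its neighbours. The strongest of their run were 26 of the 176.

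The largest relative rise was a peak in Smim14 (chr5:65475803-65476557), with 242.5, 308.5 and 310.8 in quiescent and 18.8, 79.8 and 111.2 in proliferating samples. It made up 11.7% to 14.7% of its run in quiescent and 1.06% to 5.29% in proliferating cells, without overlap (2.35 ± 0.53 against its neighbours, limma adjusted p = 0.0488). In Prkcb, which encodes the protein kinase C beta of B-cell receptor signalling, a peak (chr7:122357824-122358631) held 144.0, 76.3 and 87.3 against 25.9, 18.6 and 22.0. It rose by 2.29 ± 0.32 against its neighbours (limma adjusted p = 0.0241) while the run differed by -0.13. The others lay in runs in Hrh2, a histamine receptor (2.27), and Ankrd33b (2.12), and near Ccr7, a chemokine receptor of lymphocyte homing (2.11). In Ankrd33b quiescent sample 1 (305.2) lay well below samples 2 and 3 (947.6 and 984.5), and all were above the proliferating samples (72.9 to 178.5).

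The largest relative fall was a peak in Apbb2, an adaptor that binds amyloid precursor protein (chr5:66367706-66368228). It held 4.9, 1.8 and 3.8 in quiescent and 50.9, 35.4 and 33.8 in proliferating samples, and so lay near 0 in all quiescent samples (-3.20 ± 0.48, limma adjusted p = 0.0261). Near Anp32e, a chaperone that removes histone H2A.Z, a peak (chr3:95952848-95953169) held 9.2, 14.6 and 14.7 against 80.5, 112.3 and 84.3 (-2.97 ± 0.33, limma adjusted p = 0.0204), while its run of 14 peaks differed by 0.18. The others were near 1600014C23Rik (-2.67) and in Stat4, a cytokine signal transducer (-2.53), and Myo5c, an unconventional myosin (-2.29). In Stat4 quiescent sample 1 (62.5) stood apart from samples 2 and 3 (16.0 and 12.2), below all proliferating samples (93.8 to 129.1), while the run as a whole rose (0.35, limma adjusted p = 0.0462).

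**Figure D5:**
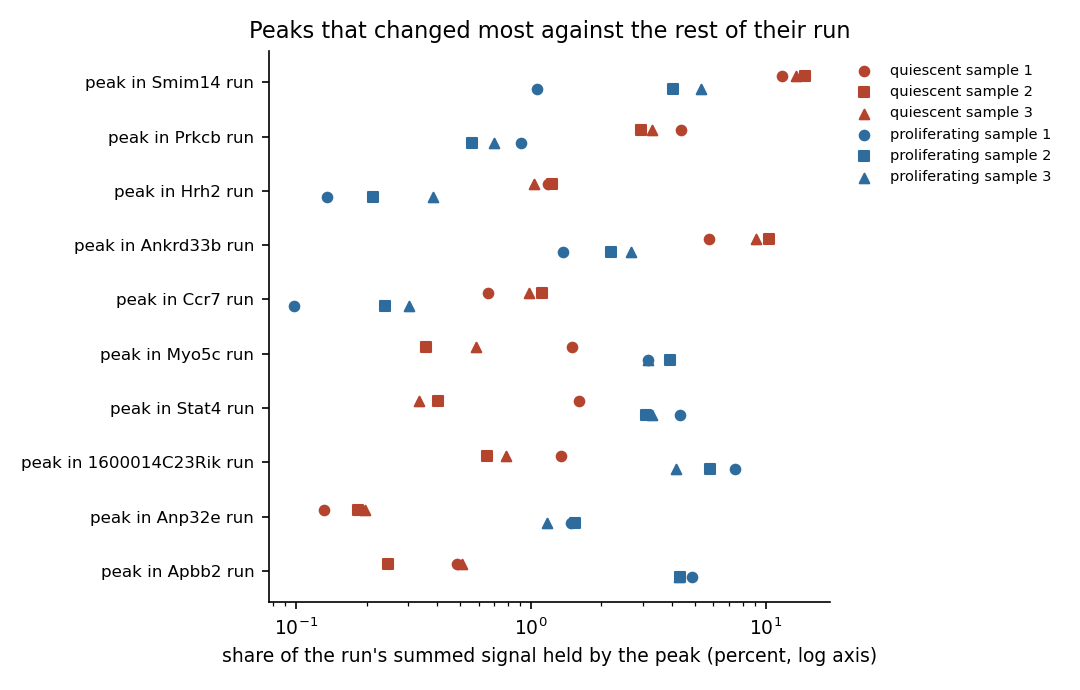
Share of its run's summed signal held by each peak (percent, horizontal log axis) in the 6 samples, for the 5 peaks with the largest rise and the 5 with the largest fall against the rest of their run. Symbols give the sample number and colours the group. In every row the red and blue points do not overlap, as in Apbb2, where the share is 0.246% to 0.507% in quiescent and 4.28% to 4.87% in proliferating samples.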

How the data were processed

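Accessibility was measured by ATAC-seq in 3 quiescent and 3 proliferating samples. Bowtie2, SAMtools, MACS2 and the build mm10 are named in the submitters' processing notes, without settings. The deposited table holds, for 97124 peaks of a shared list (4 on an unplaced sequence), a scaled signal in each sample, and the sources used here do not give the authors' scaling method. Low values lie on steps whose size changes with peak strength. Following these steps in 4 rounds recovered reads, in totals of 27884520, 14018740 and 18594100 in the quiescent and 8053648, 31789501 and 49394106 in the proliferating samples. Of the nonzero values under 1000 reads, 98.7% to 100.0% lay within 0.1 of a whole number. The steps were chosen for such regular spacing, so this share is not an independent check.

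Peaks were placed against a RefSeq gene table (GRCm38.p6, the assembly behind mm10). Signal was summed per run and tested in R 4.3.3 with limma 3.58.1, as log2(sum + 1) with an intensity trend, over all 58711 units above the lowest 10% by mean. The same fit was made on 87411 single peaks and, on a peak's log2 value minus that of the mean of the other peaks in its run, on 42545 peaks. Benjamini-Hochberg adjustment ran over each whole table. Log2 fold changes of the deposited signal refer to log2(value + 1), which understates those of weak peaks. Values given as -fold are ratios of group means. The fits were tested on simulated data. Other steps ran in Python 3.11.15 (scipy 1.17.1, pandas 2.3.3, numpy 2.4.6, matplotlib 3.10.9). Alternatives on recovered reads used limma-voom.

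Replicate numbers are in the labels. Same-numbered samples deviated together from their group means (r = 0.459, 0.318 and 0.22 over all units). Of the differently numbered pairs 4 had r of -0.391 to -0.225, but quiescent 2 with proliferating 3 had 0.245 and quiescent 3 with proliferating 2 had 0.158. The labels do not state a pairing. As every same-numbered r was above 0.1, the numbers were taken to pair the samples for the block. The differently numbered pairs above 0.1 mean that these r do not establish a pairing. In the dense runs quiescent 2 had r = 0.457 with proliferating 2 and 0.471 with proliferating 3. The main fits leave the replicate number out, and the block is given beside the results it moves.

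Runs were named by rule: the 10 called with the largest change each way, the 5 with the most peaks, the 5 with the most signal per kb, per gene list the called runs or else that with the lowest p, and the 5 peaks each way with the largest change against their run. A run of 27 peaks in Zmiz1 tied in length with those of Ebf1 and Elf1. Runs, lists and tests were chosen with earlier results of these data known. The 11 lists were of early B-cell, mature and activated B-cell, cell cycle, quiescence, cytokine, AP-1, stem, myeloid, T and NK, plasmacytoid dendritic and plasma cell, and erythroid and megakaryocyte genes. Peak sequences and their GC content were not analysed here. A run chosen by the rule is not reported here.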

Additional observations from a re-analysis of the deposited data

How the results depend on the processing

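The split of 36 runs higher and 28 lower was 36 and 28 outside the immunoglobulin loci and with a pseudocount of 0.5, 35 and 27 with 8, and 29 and 24 without the filter on low values. It became 94 and 69 with the replicate block, 58 and 45 with reads scaled to their totals, 156 and 8 with median-of-ratios scaling and 7 and 1 with the mean of log2 values, and without the strongest peak of each run, an alternative chosen after seeing the data, 36 and 17. Leaving out each sample gave 0 to 51 higher and 0 to 35 lower, and over all units 0 to 4052 and 0 to 2022. Changing the rule changes which runs are counted. A gap of 2.5 kb gave 8 and 7 (9.87% of 152 runs), and of 10 kb 107 and 57 (11.8% of 1392). Over all units these fits called 2842 higher and 1919 lower of 66639, and 1866 and 1318 of 49248. Runs of 6 or more peaks gave 98 and 67 (12.7% of 1298), and of 12 or more 4 and 3 (6.09% of 115). The background of these was 6.99%, so the runs of 12 or more peaks lay below it. Member peaks, 237 higher and 162 lower (7.62%), became 676 and 408 with the block (20.7%, against 18.3% of all peaks). Total-scaled reads gave 322 and 434 (14.5%), and median-of-ratios 685 and 182 (16.6%). Over all 87411 peaks those fits gave 4539 and 8505, and 8747 and 3494. A gap of 2.5 kb gave 46 and 36 (6.38%), and of 10 kb 781 and 480 (8.19%). Runs of 6 or more peaks gave 471 and 297 (7.92%), and of 12 or more 68 and 42 (6.75%). The background under each rule was 6.72%. Without a sample the counts were 0 to 345 and 0 to 206, and over all peaks 0 to 5616 and 0 to 3100. Peaks that parted from their run, 176 (3.36%), became 312 with the block (5.96%, against 7.32%). They were 18 (1.4%), 743 (4.83%), 328 (3.38%) and 43 (2.64%) under the same changes of rule. Over all peaks in runs the gaps of 2.5 and 10 kb gave 322 higher and 307 lower of 33455, and 1382 and 1255 of 51183. The background at 6 or more and 12 or more peaks was 3.71%. Without a sample the count was 0 to 140, and over all peaks in runs 0 to 761 higher and 0 to 636 lower. The difference in the share of signal, 0.105 percentage points, ranged from 0.028 to 0.194 without a sample, and was 0.295 (exact permutation p = 0.1) with recovered reads, 0.307 (p = 0.2) at a gap of 10 kb and 0.023 to 0.153 under the other rules, with the same sign in each. Of 518 alternative values for the 37 named runs, 371 kept direction and call, 121 lost and 17 gained the call, and 9 changed sign. Only 23 of the 37 had passed in the main fit. For the others, keeping the call means that they again did not pass, so the 371 do not measure how stable the calls were. With median-of-ratios scaling St3gal6 came to 0.086, Trio to 0.072 and Cmah to 0.179, and with the mean of log2 values Cmah came to 0.233. Leaving out each sample, Csnk1g3 ranged from -0.048 (without proliferating replicate 3) to 0.075, and Itgam from -0.168 (without proliferating replicate 1) to 0.137. Where the construction of a setting does not show the cause, the cause was not tested. Depth limits weak peaks most: proliferating sample 1 had a median of 27 reads per peak, against 179 in proliferating sample 3.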
